A study of Mus musculus with 6 samples.

Results

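The endocannabinoid system genes Cnr1, Dagla, Daglb, Napepld, Mgll, Abhd6 and Faah were taken by symbol from the count files, and all 7 were found among 32531 gene entries. They were followed in polysomal RNA pulled down from the midbrain of Lhx5-TRAP mice, against RNA titled as input from the same tissue. TRAP, translating ribosome affinity purification, captures ribosomes through an EGFP tag on the ribosomal protein Rpl10a and so enriches RNA that the tagged cells were translating. The samples were 3 IP libraries (EGFP immunopurified RNA) and 3 input libraries, all from adult, untreated control mice of the Lhx5-EGFP/Rpl10a line DT154. The same transgene was present in both groups, and regulatory sequences of Lhx5, a LIM homeodomain gene, define the tagged cells. A second label gives the input libraries as unbound, which leaves it unsettled whether they hold total tissue RNA or the RNA that the beads did not retain. Whether the replicates were separate animals is not stated, so p-values measure the spread between these libraries, which may be technical.

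Endocannabinoids are lipid messengers that neurons release on demand and that act mostly backwards across the synapse. Activity in the receiving cell raises 2-arachidonoylglycerol (2-AG), which is made by diacylglycerol lipases, or anandamide, an N-acylethanolamine released by NAPE-PLD among other enzymes. Both lipids bind the CB1 receptor on nerve terminals, where its Gi/o coupling lowers transmitter release, and hydrolases then end the signal. In the midbrain, CB1 is known for its density on striatal axons that end in the substantia nigra, whereas its RNA stays in the cell bodies of origin.

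Several whole-library facts bear on these genes. Gene totals ran from 38058239 to 45841499 counts, and Lhx5 stood at 46.8, 56.0 and 49.1 CPM (counts scaled to the TMM-adjusted library total) in IP replicates 1 to 3 against 3.92, 3.81 and 2.20 CPM in input. A summed set of 8 Purkinje cell markers reached 1500 CPM in IP replicate 2, against 285 to 333 CPM in the other IP libraries and 335 to 503 CPM in input. A summed set of 8 striatal markers reached 1040 CPM in input replicate 3, against 149 and 291 CPM in the other input libraries and 255 to 408 CPM in IP. Of 8 dopamine neuron markers, 7 could be tested and 6 were lower in IP, and their summed level was 182 CPM in input replicate 3 against 474 and 419 CPM in the other input libraries and 78.3 to 99.6 CPM in IP. Calls of the genes described here that were lost or gained without these libraries are named.

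All 7 members passed the filter on low counts, with 342 to 5615 counts per gene and library. Mgll and Napepld fell in IP, 0 members rose, and the other 5 did not pass the test (edgeR quasi-likelihood F test, p-values adjusted after Benjamini and Hochberg, threshold 0.05). Over all 17197 genes tested, 53.9% were called, 26.0% as higher and 27.9% as lower in IP. The 28.6% of members called lower was therefore close to the share of all genes. The median log2 fold change of the members was -0.17, against -0.01 for all tested genes. No member was shown to change by more than 2-fold, where 15.1% of all genes were (2.25% upward and 12.9% downward). Mgll and Napepld were also the members whose IP and input libraries did not overlap in CPM, a condition that 63.5% of all tested genes met.

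**Figure D1:**
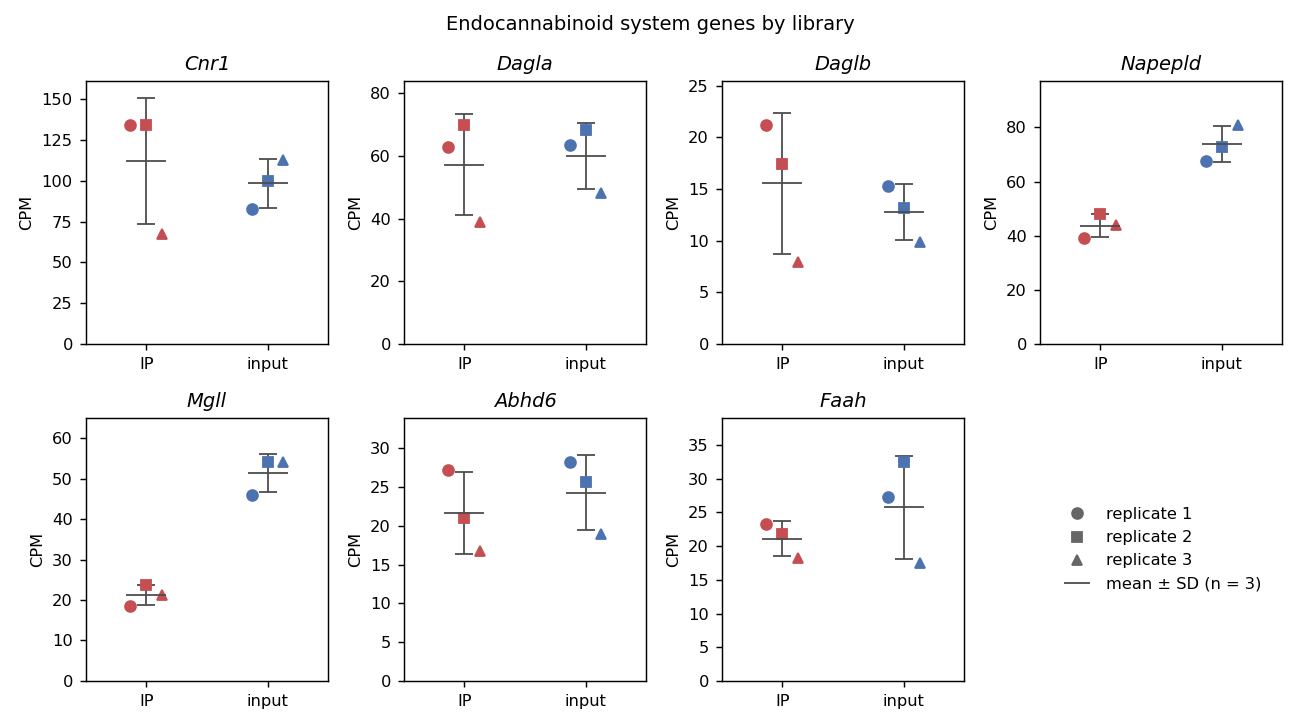
CPM of each of the 7 genes (y axis, from 0) in the 3 IP and the 3 input libraries, with 1 point per library, a marker shape per replicate number, and bars for mean ± SD (n = 3). IP libraries of Mgll (18.6 to 23.8 CPM) and Napepld (39.3 to 48.0 CPM) lie below all of their input libraries, and the groups overlap for the other 5 genes.

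Mgll encodes monoacylglycerol lipase, the serine hydrolase that clears most 2-AG in the brain and that is found in nerve terminals and in astrocytes. Mgll had 18.6, 23.8 and 21.3 CPM in IP replicates 1, 2 and 3, against 45.9, 54.0 and 54.2 CPM in the input replicates. Every IP library was below every input library, and no library stood apart within its group. The log2 fold change was -1.27 (SE 0.14), which puts IP at 41.4% of input, with an edgeR adjusted p of 0.000182. Within the same-numbered pairs the log2 ratios of IP to input were -1.30, -1.18 and -1.35. The 95% interval ran from -1.59 to -0.96, and the test against a 2-fold change gave an edgeR adjusted p of 0.0640.

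Napepld encodes NAPE-PLD, a membrane phospholipase D that frees N-acylethanolamines, anandamide among them, from their phospholipid precursors. Napepld had 39.3, 48.0 and 44.1 CPM in IP replicates 1, 2 and 3, against 67.6, 72.8 and 80.9 CPM in the input replicates. The groups again did not overlap. Napepld thus had a log2 fold change of -0.75 (SE 0.12), or 59.3% of input, with an edgeR adjusted p of 0.00129. The pairs gave -0.78, -0.60 and -0.88, so the fall was present in 3 of 3 pairs.

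Markers of non-neuronal cells and of dopamine neurons moved in the same direction as these falls. All 10 astrocyte markers were lower in IP, with a median log2 fold change of -3.24 and a summed level of 148 to 221 CPM in IP against 1304 to 1685 CPM in input. All 10 oligodendrocyte markers were lower as well, at 334 to 478 CPM in IP against 4065 to 4831 CPM in input. Of 10 microglial markers 9 were lower, at 13.3 to 26.2 CPM in IP against 68.9 to 111 CPM in input, and Trem2 had no count in IP replicate 3. Of 10 neuronal markers 9 were higher, with a median log2 fold change of 0.96. Sets for particular neurons differed. Of 7 dopamine neuron markers tested 6 were lower (median -1.74). Of 8 striatal markers 4 were lower and 1 was higher (median -2.60). Of 8 Purkinje cell markers 2 were higher and 0 lower (median 1.93). In bulk RNA, transcripts of untagged cells and transcripts that tagged cells held but translated little cannot be told apart. The part of these cell types in the Mgll and Napepld values was not tested.

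The start regions of the genes that fell are shown because Mgll and Napepld were the members that differed between IP and input; RNA counts do not show which start was used. RefSeq start windows of 250 bases before to 50 after a transcript start (GRCm38.p6) were matched for 6 of 7 members, all but Dagla. Mgll lies on chromosome 6 from 88724412 to 88828360 on the plus strand and Napepld on chromosome 5 from 21662901 to 21701396 on the minus strand (GENCODE M21, GRCm38). Mgll has 2 such windows, of which the one at the gene's annotated start is printed. That Mgll window covers chr6:88724162-88724461 on the plus strand and holds 32 CpG and 70.0% G or C, and the other covers chr6:88724454-88724753, with 42 CpG and 72.3% G or C. The Napepld window covers chr5:21701573-21701872 on the minus strand and holds 28 CpG and 70.3% G or C. This window lies wholly before the gene's annotated start at 21701396, so its start is that of a RefSeq transcript only. Capitals mark matches on either strand to GGGCGG, the GC box bound by Sp/KLF factors, or AAGATGGC, a core of sites for the factor YY1.
Mgll: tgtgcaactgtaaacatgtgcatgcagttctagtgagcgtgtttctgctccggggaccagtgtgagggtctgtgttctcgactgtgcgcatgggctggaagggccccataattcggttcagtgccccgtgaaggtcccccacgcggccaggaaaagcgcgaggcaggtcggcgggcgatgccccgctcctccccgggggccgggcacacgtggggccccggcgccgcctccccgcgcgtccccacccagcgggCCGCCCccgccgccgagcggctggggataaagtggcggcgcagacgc
Napepld: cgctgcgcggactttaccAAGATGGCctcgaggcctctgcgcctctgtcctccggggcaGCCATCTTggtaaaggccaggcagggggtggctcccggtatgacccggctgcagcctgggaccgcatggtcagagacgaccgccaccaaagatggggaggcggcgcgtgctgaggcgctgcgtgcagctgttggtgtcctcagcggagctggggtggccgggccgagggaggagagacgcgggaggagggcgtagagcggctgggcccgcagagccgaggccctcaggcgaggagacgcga
The printed Mgll window holds 1 GC box match, as does the other Mgll window, 121 bases before its start, a sequence found in 35.7% of 32851 RefSeq windows of this length. The Napepld window holds 2 matches to AAGATGGC, which begin 232 and 191 bases before the RefSeq start on opposite strands. Of all windows, 2.75% hold at least 1. None of these 3 windows holds TATAAA or CCAAT, present in 13.6% and 37.4% of all windows, and the motifs were chosen after the sequences were seen. A match is a run of letters only and says nothing of a factor's binding.

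Cnr1, the gene of the CB1 receptor, had the highest CPM of the members in every library. Cnr1 had 134, 134 and 67.6 CPM in IP replicates 1, 2 and 3, against 82.8, 99.9 and 112 CPM in the input replicates. IP replicates 1 and 2 were above all input libraries and IP replicate 3 was below them all, at 50.4% of the mean of the other IP libraries. Over all libraries Cnr1 had a log2 fold change of 0.19 (SE 0.25) with an edgeR adjusted p of 0.555, and the 95% interval ran from -0.39 to 0.76. The pairs pointed in different directions, at 0.70, 0.43 and -0.74.

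The Cnr1 result turned on IP replicate 3. Without that library Cnr1 was called higher in IP, with a log2 fold change of 0.46 and an edgeR adjusted p of 0.0275. Without both libraries numbered 3, an alternative chosen after seeing the data, it was 0.55 (edgeR adjusted p 0.00395). Leaving out any other single library gave log2 fold changes of 0.01 to 0.28 and no call. Input replicate 3, high in striatal markers, had the highest input value of Cnr1, and without it the log2 fold change was 0.28 (edgeR adjusted p 0.476). The part of striatal RNA in the input value was not tested.

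Dagla and Daglb encode the diacylglycerol lipases, of which the alpha enzyme makes most 2-AG at adult synapses and the beta enzyme is prominent in macrophages and microglia. Dagla had 62.9, 69.9 and 39.0 CPM in IP replicates 1, 2 and 3, against 63.4, 68.1 and 48.2 CPM in the input replicates. Replicate 3 was the lowest library of Dagla in both groups, and the groups overlapped throughout. The log2 fold change was -0.07 (SE 0.22, 95% interval -0.57 to 0.44, edgeR adjusted p 0.821), with 0.16 without IP replicate 3 and -0.26 without IP replicate 2, the library high in Purkinje cell markers. The pairs gave -0.01, 0.04 and -0.30.

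Per length, with all of its exon bases counted, Daglb was the least abundant member in all 6 libraries. In IP it was also the least even of the 7. It had 21.2, 17.4 and 7.98 CPM in IP replicates 1, 2 and 3, against 15.3, 13.1 and 9.92 CPM in the input replicates. Its highest IP library was 2.66 times its lowest, and replicate 3 was again the lowest library in both groups. The log2 fold change was 0.28 (SE 0.33, 95% interval -0.48 to 1.04, edgeR adjusted p 0.503). Without IP replicate 3 Daglb was called higher, at 0.61 (edgeR adjusted p 0.0436), and without IP replicate 2 and input replicate 3 together it was at -0.0053.

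Daglb counts carry a further limit from its position. On chromosome 5, 2309 bases of Daglb exons, 49.6% of its coding transcripts, lie under exons of Rac1 on the opposite strand (143503634 to 143505942, GENCODE M21, GRCm38). Rac1, a small GTPase gene, averaged 857 ± 56.2 CPM in IP libraries and 703 ± 33.9 CPM in input libraries (SD, n = 3 each). Rac1 was called higher in IP, with a log2 fold change of 0.29 (SE 0.10, edgeR adjusted p 0.0385). That is near the Daglb value of 0.28, which did not pass. The part of Rac1 reads in the Daglb fold change was not tested. Which strand setting the counting used is not given in the sources used here, so reads from the shared bases may have been left out as ambiguous or given to either gene. Ambiguous reads made up 1.63% ± 0.0460 of the counts in IP files and 9.35% ± 1.48 in input files, summary lines included (SD, n = 3 each).

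Abhd6 encodes a membrane-bound serine hydrolase that breaks down 2-AG on the postsynaptic side. Abhd6 had 27.2, 21.1 and 16.7 CPM in IP replicates 1, 2 and 3, against 28.3, 25.7 and 18.9 CPM in the input replicates. Each IP library was below its same-numbered input library, at -0.06, -0.28 and -0.18, while the groups overlapped. Abhd6 did not pass, with a log2 fold change of -0.17 (SE 0.21, 95% interval -0.65 to 0.32) and an edgeR adjusted p of 0.539.

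Faah encodes fatty acid amide hydrolase, the main enzyme that degrades anandamide. Faah had 23.3, 21.8 and 18.2 CPM in IP replicates 1, 2 and 3, against 27.3, 32.6 and 17.5 CPM in the input replicates. IP was even, whereas the lowest input library was below all IP libraries. Faah did not pass, with a log2 fold change of -0.29 (SE 0.22, 95% interval -0.80 to 0.22) and an edgeR adjusted p of 0.299. Without input replicate 3 Faah was called lower in IP, at -0.53 (edgeR adjusted p 0.0346), and without both libraries numbered 3 it was at -0.41 (edgeR adjusted p 0.0357).

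**Figure D2:**
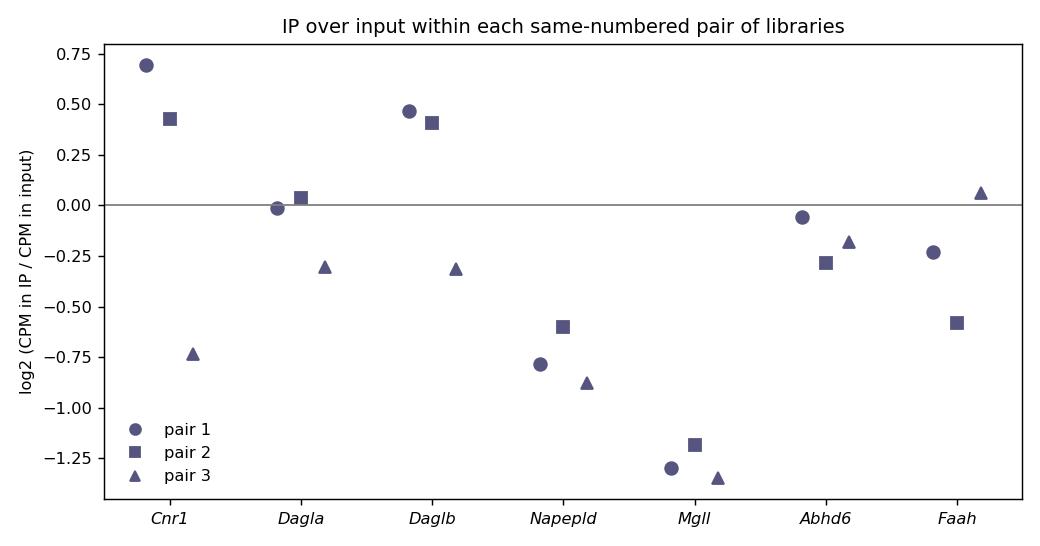
Log2 ratio of CPM in IP to CPM in input (y axis) within each pair of libraries that share a replicate number, for the 7 genes, with a marker shape per pair and a line at 0. The 3 pairs of Mgll (-1.35 to -1.18) and of Napepld (-0.88 to -0.60) lie close together below 0, while Cnr1 spreads from -0.74 to 0.70.

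Replicate 3 was low for part of the members only. Relative to the mean of IP replicates 1 and 2, IP replicate 3 had log2 differences of -1.27 for Daglb, -0.99 for Cnr1 and -0.77 for Dagla. Those of Abhd6 and Faah were -0.53 and -0.30, but Napepld stood at 0.01 and Mgll at 0.0049. The median over all tested genes was 0.05, and 6.16% of them were lower than Daglb and 9.13% lower than Cnr1. In input, the same difference was -0.77 for Faah, -0.52 for Daglb, -0.51 for Abhd6 and -0.45 for Dagla. Cnr1, Napepld and Mgll stood at 0.30, 0.20 and 0.12, against a median of -0.0048 over all tested genes. Each numbered pair of libraries had a sequencing lane number of its own, so lane and replicate cannot be told apart.

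Levels of different members were compared per length, as CPM per kilobase of merged exons. In IP, Cnr1 came first at 17.4 ± 5.97 CPM per kilobase (SD, n = 3), followed by Napepld at 11.1 ± 1.10, Dagla at 9.96 ± 2.81 and Abhd6 at 9.16 ± 2.23. The ranges of these 4 genes overlapped across libraries, so their full order was not resolved. Within every IP library Cnr1 was above Dagla and Abhd6. Below these 4 genes and without overlap came Mgll at 4.19 ± 0.509, Faah at 2.69 ± 0.331 and Daglb at 1.62 ± 0.712 CPM per kilobase. The Daglb length includes the bases shared with Rac1, so its last place, here and in input, is uncertain.

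In input, Mgll was level with genes that it lay below in IP. Napepld (18.6 ± 1.70 CPM per kilobase) and Cnr1 (15.3 ± 2.31) led with overlapping ranges, and all libraries of both were above those of Dagla (10.4 ± 1.82). Dagla, Abhd6 (10.3 ± 2.04) and Mgll (10.1 ± 0.936) overlapped. Faah (3.29 ± 0.976) and Daglb (1.34 ± 0.285) were again last, and their libraries did not overlap. With the longest coding transcript as length, chosen after seeing the data, IP values were 5.51 for Faah, 5.32 for Mgll and 3.34 for Daglb, so Faah and Mgll changed places. In input that length put Mgll (12.9 ± 1.19) ahead of Abhd6 (10.9 ± 2.17) and Dagla (10.6 ± 1.85), with ranges that still overlapped.

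Ratios of 2 genes in the same library do not depend on how libraries are scaled. Dagla had 2.98, 2.59 and 1.62 times the counts per kilobase of Mgll in IP replicates 1, 2 and 3, against 1.22, 1.11 and 0.785 times in the input replicates. The groups did not overlap. The 2-AG synthesis gene was above the hydrolase gene in all 3 IP libraries, but which of them led in input depended on the length used. With the longest coding transcript as length, Dagla had 2.39, 2.08 and 1.30 times the counts per kilobase of Mgll in IP and 0.979, 0.893 and 0.629 times in input, so it led in 0 of 3 input libraries, against 2 of 3 with merged exons. The difference between IP and input does not depend on that choice. The mean log2 ratio was 1.21 ± 0.461 over the IP libraries and 0.03 ± 0.337 over the input libraries (SD, n = 3 each), a difference of 1.18, or 2.27-fold. The pairs gave differences of 1.29, 1.22 and 1.05.

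Among the 2-AG hydrolases, Mgll had 0.319, 0.526 and 0.593 times the counts per kilobase of Abhd6 in IP replicates 1, 2 and 3, against 0.756, 0.980 and 1.33 times in the input replicates. Every IP ratio was below every input ratio, with a mean log2 difference of -1.10. Between the lipases that make 2-AG, the ratio of Dagla to Daglb was 4.94, 6.67 and 8.14 in IP and 6.89, 8.63 and 8.08 in input. Those ranges overlapped, with a mean log2 difference of -0.28. The level of this ratio rests on the long merged exons of Daglb (9567 bases, against 4651 in its longest coding transcript). The other length gave 2.45, 3.31 and 4.04 in IP and 3.41, 4.28 and 4.01 in input. Both lengths include the bases that Daglb shares with Rac1, so the level of this ratio is uncertain. The ratio of Mgll to Abhd6 with the longest coding transcripts was 0.382 to 0.710 in IP and 0.905 to 1.60 in input. These ratios are given as descriptions with no test. Both ratios whose groups did not overlap contain Mgll (log2 fold change -1.27), set against Dagla (-0.07) and Abhd6 (-0.17), which did not pass. They largely restate the lower Mgll level in IP and are not a separate result.

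**Figure D3:**
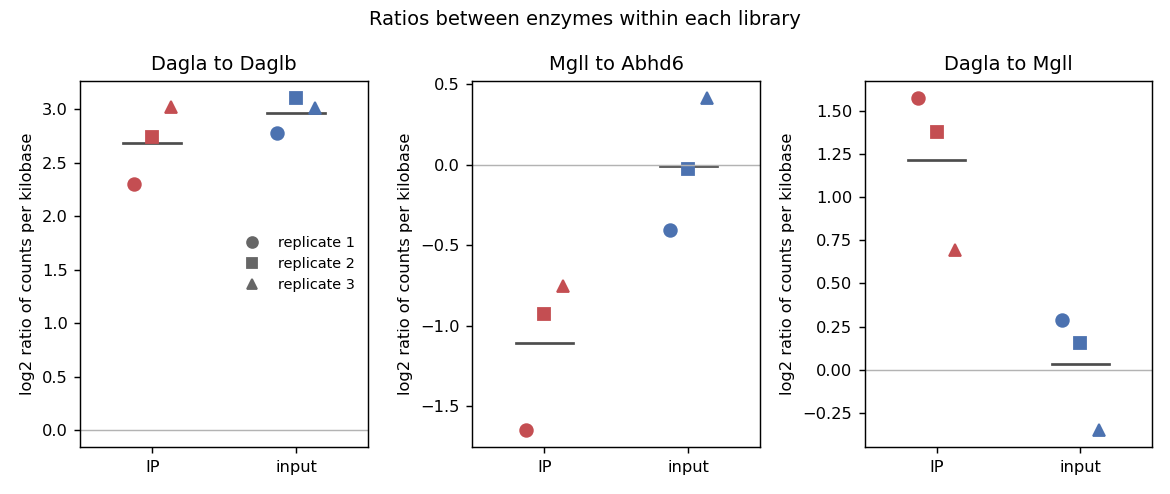
Log2 ratio of counts per kilobase of exon (y axis) for 3 pairs of enzyme genes in each IP and each input library, with a marker shape per replicate and a line at each mean. IP and input do not overlap for Mgll to Abhd6 (lower in IP, by 1.10 on average) or for Dagla to Mgll (higher in IP, by 1.18 on average). Both of these ratios contain Mgll, which was itself lower in IP. The groups overlap for Dagla to Daglb.

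The wider pathway was described with a list of 30 further genes, of which 24 could be tested. In IP, 7 were higher, 7 were lower and 10 did not pass, with a median log2 fold change of -0.02. The called share, 58.3%, was near the 53.9% of all tested genes. Leaving out IP replicate 2 and input replicate 3 together gave 4 higher and 8 lower. The calls of Plcb4, Gde1, Pla2g4e and Alox12 were then lost (edgeR adjusted p 0.0919, 0.0889, 0.273 and 0.0758), while Plcb3 and Gdpd3 were called lower (log2 fold change -2.76 each, edgeR adjusted p 0.00129 and 0.0383). With the replicate number as a block, Gdpd1 (0.51), Chrm3 (0.70) and Gna11 (0.26) were also called higher, which made 10. Gnaq, a G protein alpha q gene like Gna11, stood at -0.21 and did not pass. It was called lower with upper-quartile or library-total scaling (edgeR adjusted p 0.0133 and 0.0200). The same held with the filter on CPM (edgeR adjusted p 0.0356) and with DESeq2 (DESeq2 adjusted p 0.0351). Chrm3 was also called higher without IP replicate 3 (edgeR adjusted p 0.0214) or input replicate 2 (0.0461).

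Among other receptors for these lipids, the cell-surface ones had low counts, at most 40 in any library. Cnr2, the CB2 gene of immune cells, had 0, 0 and 7 counts in IP and 11, 9 and 7 counts in input. Gpr55 had 5, 1 and 9 counts in IP against 14, 8 and 40 in input, and Gpr18 had 0 counts in each IP library against 3, 1 and 22 in input. The 40 and the 22 counts were in input replicate 3, the library high in striatal markers. Gpr119 and Trpv1, the capsaicin receptor gene, had at most 4 and 12 counts in any library. At this depth 3 counts correspond to 0.0688 to 0.0741 CPM, counting error only, and no comparison was made. Ppara, a nuclear receptor for acylethanolamides, was lower in IP at 1.31 ± 0.225 CPM against 6.05 ± 0.410 CPM in input (SD, n = 3 each; log2 fold change -2.20, SE 0.25).

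Of 2 partner genes of CB1, 1 was higher in IP. Cnrip1, which encodes a protein that binds the CB1 tail, was higher in IP at 94.8 ± 6.35 CPM against 65.7 ± 5.11 CPM in input (SD, n = 3 each; log2 fold change 0.53, SE 0.11). Sgip1, an endocytic adaptor that slows CB1 internalisation, had 477 ± 30.1 CPM in IP and 449 ± 50.1 CPM in input and did not pass.

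Genes upstream of 2-AG synthesis went both ways. Plcb4, a phospholipase C beta that supplies diacylglycerol, was higher in IP (log2 fold change 0.49, SE 0.13), while Plcb1 was lower (-1.02, SE 0.19). The Plcb4 call was lost without input replicate 3 (edgeR adjusted p 0.0537) and with upper-quartile or library-total scaling (edgeR adjusted p 0.0596 and 0.0593), and IP replicate 2 had its highest value, 299.9 CPM. Plcb3 had 9.40 CPM in IP replicate 2 against 0.884 and 1.003 CPM in the other IP libraries, and without that library it was called lower, at -2.71 (edgeR adjusted p 0.000659). The muscarinic receptor gene Chrm1 was lower in IP at 9.82, 9.45 and 1.59 CPM against 23.9, 34.9 and 29.0 CPM in input (log2 fold change -2.08, SE 0.54), a call lost with no low-count filter (edgeR adjusted p 0.0574). The metabotropic glutamate receptor gene Grm5 did not pass, at -0.41 (SE 0.22), but was called lower without IP replicate 1, at -0.63 (edgeR adjusted p 0.0372).

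Alternative routes to anandamide also split. Abhd4, a hydrolase that acts on the precursor phospholipids, was lower in IP at 8.49 ± 0.563 CPM against 37.4 ± 1.18 CPM in input (SD, n = 3 each; log2 fold change -2.14, SE 0.13). Gde1, a glycerophosphodiesterase of the same route, was higher (0.76, SE 0.19), a call lost without IP replicate 2 and input replicate 3 together. Also higher was Pla2g4e, an N-acyltransferase that makes the precursors (0.72, SE 0.26). The Pla2g4e call had an edgeR adjusted p of 0.0438 and was lost on leaving out IP replicate 1 (0.0654), IP replicate 2 (0.209) or input replicate 3 (0.115). It was also lost under RLE, upper-quartile and library-total scaling and under both other filters (edgeR adjusted p 0.0504 to 0.0937). Gdpd1, another phosphodiesterase, stood at 0.54 (SE 0.24) and did not pass, but was called higher without IP replicate 3 (edgeR adjusted p 0.00940).

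Other genes that dispose of or carry these lipids included the largest falls of the list. Abhd12, a further 2-AG hydrolase of brain, was higher in IP at 196, 179 and 135 CPM against 104, 99.1 and 71.7 CPM in input (log2 fold change 0.89, SE 0.18). Ptgs2, cyclooxygenase-2, was lower in IP at 0.908, 0.537 and 0.0233 CPM against 4.11, 7.61 and 3.70 CPM in input (-3.39, SE 0.79). Alox12, a lipoxygenase gene, had at most 5 counts in an IP library against 19 to 49 counts in input, and Alox15 had 0 counts in all 6 libraries. Alox12 was lower in IP (-3.42, SE 0.91), and its call was lost without input replicate 3 (edgeR adjusted p 0.0530). Fabp7, the fatty acid carrier of astrocytes and radial glia, was lower at 9.43 ± 1.35 CPM in IP against 115 ± 4.32 CPM in input (SD, n = 3 each; -3.60, SE 0.14). Fabp3 and Fabp5, carriers expressed in neurons, were higher (1.12, SE 0.12, and 0.91, SE 0.14), although both have processed pseudogene copies that leave their counts uncertain. The edgeR adjusted p of the 14 called pathway genes was 0.0438 or less.

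**Figure D4:**
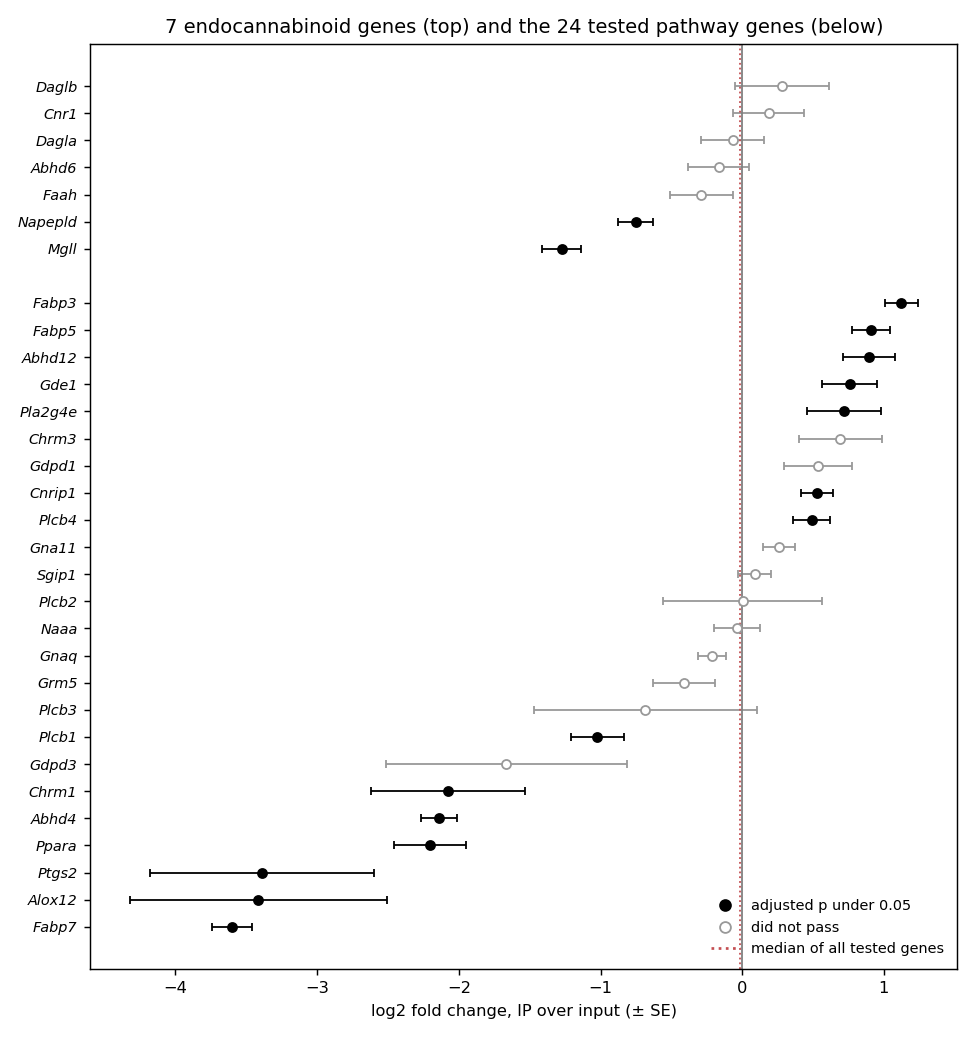
Log2 fold change of IP over input with its SE (x axis) for the 7 members and the 24 tested pathway genes, filled where the edgeR adjusted p was under 0.05, with a dotted line at the median of all tested genes. Mgll and Napepld are the filled members, both below 0, and the pathway genes run from -3.60 (Fabp7) to 1.12 (Fabp3).

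The genes with the most similar profiles over the 6 libraries were found by the Euclidean distance between mean-centred log2 CPM, among 9568 genes of moderate or high level. For Mgll they were Ints2 (distance 0.13), Nwd2 (0.17) and Zfp871 (0.17), and for Napepld they were Phc3 (0.07), Tcf3 (0.11) and Rasal2 (0.12). Il1rapl1 (0.24), the sodium channel gene Scn2a1 (0.26) and the GABA receptor gene Gabrq (0.27) were nearest to Cnr1. Dagla was nearest to Alg10b (0.09), the synaptotagmin gene Syt1 (0.18) and Plxnb2 (0.20), and Daglb to Pcdhb17 (0.17), Rpn2 (0.18) and Lmbrd1 (0.20). Abhd6 was nearest to the GABA receptor gene Gabrb2 (0.12), Abca2 (0.13) and Crim1 (0.14). Faah had the most distant neighbours, Entpd7 (0.29), Bcan (0.32) and Gpr22 (0.33). These distances describe 6 libraries, of which only same-numbered IP and input libraries share a lane number, and carry no test.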

How the data were processed

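RNA from 3 IP and 3 input libraries was analysed. The authors deposited raw counts of reads for each gene symbol. Per the submitters' processing notes, STAR 2.0.0e and HTSeq were used with mm10. Which annotation, strand setting and counting mode were used is not given in the sources used here. Each file holds 32531 gene entries, and 6 further lines that name no gene (no feature, ambiguous, not unique and others) were kept out of totals and tests. Reads outside any feature made up 7.79% ± 0.0621 of IP and 13.7% ± 1.07 of input, and alignments that were not unique 44.2% ± 0.402 and 32.5% ± 0.596 (SD, n = 3 each).

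Genes were filtered by filterByExpr (minimum count 10, minimum total 15), which kept 17197, and compared by edgeR 4.0.16 under R 4.3.3 (TMM scaling, robust quasi-likelihood fit, two-sided F test, group as the only term, Benjamini-Hochberg adjustment over all tested genes, threshold 0.05). The 2-fold test was glmTreat. The SE is the log2 fold change divided by the square root of F, and 95% intervals use the fit's t distribution. The scripts were tested on simulated counts. Gene lengths are merged exons of GENCODE M21.

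Members, pathway list and markers were chosen with earlier results of these data known. A gene of the pathway list is not reported here and was left out of its counts. All members, every pathway gene that passed, every receptor and the 3 nearest genes of each member (average log2 CPM of at least 3, unnamed transcripts left out) are named. Other pathway genes and Rac1 were named after their values were seen. Endothelial markers were 7 of 8 lower in IP, at 17.5 to 28.2 CPM in IP and 33.0 to 59.3 CPM in input.

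Same-numbered IP and input libraries share a lane number in their labels, so a replicate block pairs by lane. Deviations from group means correlated at 0.154, 0.0744 and 0.0506 within pairs. Replicates of a group correlated at 0.971 to 0.985 (log2 CPM, across genes), and their chi-square per degree of freedom of 25.6 to 79.3 gave no sign of a library deposited again. Also tried were library-total, upper-quartile and RLE scaling, other filters, the block, DESeq2 1.42.0, limma-voom (limma 3.58.1), leaving out libraries, and another gene length.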

Additional observations from a re-analysis of the deposited data

How the results depend on the processing

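Mgll and Napepld kept their direction and their call under all alternatives that were run, scaling, filters, tests, the replicate block and left-out libraries included. Without 1 library or without both libraries numbered 3, their log2 fold changes ran from -1.40 to -1.17 and from -0.86 to -0.67. The other 5 members were not called under the scaling, filter, test and block alternatives. Their leave-one-out ranges, which include the fit without both libraries numbered 3, were 0.014 to 0.55 for Cnr1, -0.26 to 0.16 for Dagla, 0.0012 to 0.61 for Daglb, -0.35 to 0.0028 for Abhd6 and -0.53 to -0.083 for Faah. Cnr1 and Daglb were called higher without IP replicate 3, and Cnr1 without both numbered 3. Faah was called lower without input replicate 3 and without both numbered 3. So 0 to 2 members were higher and 2 to 3 lower across these fits. Without IP replicate 2 and input replicate 3 together Daglb stood at -0.0053 and 4 pathway genes were higher. Pathway counts ran from 5 to 9 higher and from 6 to 8 lower without single libraries or both numbered 3, all genes from 3721 to 4572 higher and 4164 to 4783 lower, and genes past 2-fold from 288 to 347 upward and from 1767 to 2134 downward. With upper-quartile scaling 245 genes were past 2-fold upward. That scaling moved the median log2 fold change of all genes to -0.17 and library totals to -0.15, against -0.01. Of all calls 48.2% were upward, against 38.1% and 39.2% under these scalings. No member changed sign under either. The replicate block changed no call of a member. Ratio differences kept their sign without single libraries, at -0.45 to -0.087 for Dagla to Daglb, -1.30 to -0.83 for Mgll to Abhd6 and 0.99 to 1.44 for Dagla to Mgll. Levels in IP per kilobase of the longest coding transcript were 3.34 for Daglb, 5.32 for Mgll and 5.51 for Faah. The causes of these differences were not tested. With 3 libraries a group, the widest 95% interval of a member, that of Daglb, spanned -0.48 to 1.04, so changes within it were not resolved.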
